A study of Danio rerio with 32 samples.

Results

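Exposure to 3.2 µM retene, an alkylated phenanthrene formed from plant resin acids, was compared with the DMSO vehicle across all genes measured in whole zebrafish larvae. The comparison used 8 of the 32 RNA-seq pools of the series, 4 exposed and 4 control, which were taken by their group labels. Fish of the wild-type Tropical 5D line were dechorionated at 4 hpf, exposed from 6 hpf to retene in DMSO or to the solvent only, and collected at 48 hpf. Each pool held 9 whole larvae, and only fish of normal appearance were taken in every group. The other 24 pools held larvae exposed in the same way to 0.205, 0.512, 1.28, 8, 20 or 50 µM, and 3.2 µM was the fourth of the 7 concentrations. Nothing in the labels says that the pools came from separate spawns, so the p-values measure the spread between these pools.

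The aryl hydrocarbon receptor (AHR) is a transcription factor that binds planar aromatic compounds, moves to the nucleus and pairs there with ARNT to switch on its target genes. The best known targets are cytochrome P450 enzymes of family 1, which oxidize the inducing compound, and the AHR repressor, which limits the response. In zebrafish the receptor through which most such compounds act is Ahr2, and cyp1a is the usual readout of its activity, in vessel endothelium, skin and liver among other tissues.

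By the test used here, larvae at 3.2 µM showed a narrow response, with 19 differentially expressed genes (DEGs) of 22686 tested. Of these, 13 were higher and 6 were lower than in the control. Of the 13, 3 were family 1 cytochromes P450, cyp1a, cyp1c1 and cyp1c2, and these had the largest positive Log2FC of all genes. The other 10 rises, like that of cyp1c2, were under 1 on the Log2FC scale. These 10 included a sulfotransferase (sult6b1), a forkhead factor (foxf2a), a secreted inhibitor of TGF-β ligands (wfikkn1) and a clock gene (cry1a). The 6 falls were led by zgc:111986 and by GeneID.101885028, which has no symbol in the annotation used. A DEG had a Benjamini-Hochberg adjusted p under 0.05 in a limma fit to the deposited log2 values, which made 0.0573% of all genes DEGs that rose, 0.0264% DEGs that fell and 0.0838% DEGs in either direction. Log2FC is the difference of group means on that deposited scale, which shrinks the changes of genes with few reads, so the ratio of mean normalized reads (reads divided by a size factor for each pool) is given beside it.

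**Figure D1:**
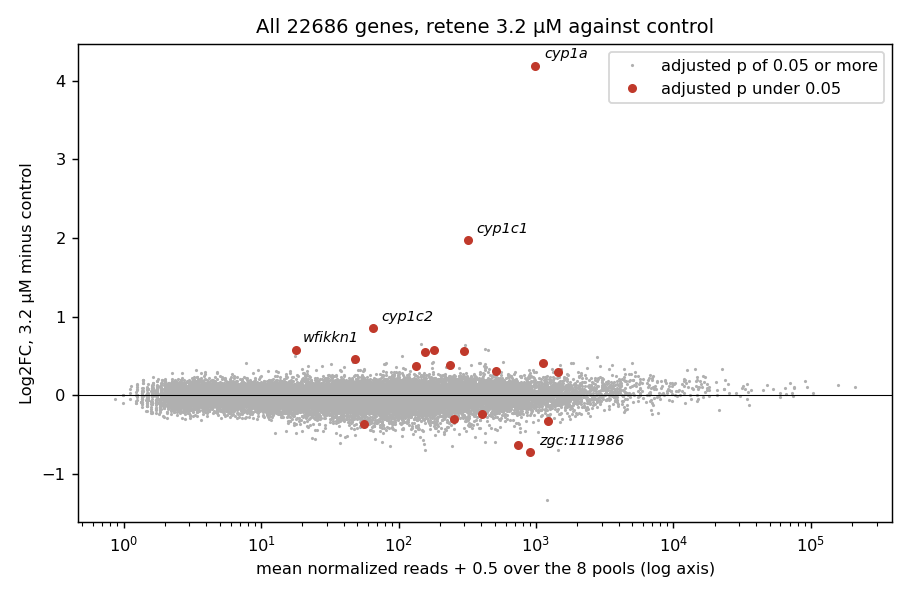
Log2FC of 3.2 µM against control for each of the 22686 genes (vertical axis) against the mean normalized reads over the 8 pools plus 0.5 (log axis). The 19 DEGs are in red: cyp1a, cyp1c1 and cyp1c2 stand above all other genes, while the remaining 16 DEGs lie between -0.72 and 0.58, within the range that genes without a call also reached.

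The 8 pools held between 7807886 and 8656870 reads on genes, with size factors between 0.964 and 1.06. Control replicate 2 stood apart from the rest. Its root-mean-square distance to the other controls was 0.230 on the log2 scale, against 0.128 to 0.163 for the 7 other pools to their own group mates, and it lay at -30.6 on a first principal component that spanned -2.43 to 14.2 in the others. Among the exposed pools, replicate 4 had the highest value for 10 of the 13 genes that rose, whereas it was the highest of the 4 for 26.3% of all genes. Without control replicate 2 the number of DEGs was 10 (6 higher, 4 lower), without replicate 4 of 3.2 µM it was 9 (6 higher, 3 lower), and without both it was 5 (3 higher, 2 lower). Fitted on the 8 pools alone, without the other 24 to share the estimate of spread, the number was 6, and cyp1c2, foxf2a and sult6b1 were not among them (adjusted p = 0.189, 0.131 and 0.189, limma). In the fit over all pools, 7 genes were called whichever of the 8 pools was left out: cyp1a, cyp1c1, cyp1c2, foxf2a, sult6b1, zgc:111986 and GeneID.101885028.

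Cyp1a oxidizes polycyclic aromatic hydrocarbons. Its normalized reads were 36.5, 20.0, 25.4 and 22.7 in the 4 control pools and 1554, 1277, 1517 and 3422 in the 4 pools of 3.2 µM. Every exposed pool was far above every control pool, and replicate 4 of 3.2 µM had more than 2 times the reads of the next highest pool. The means were 26.1 ± 7.2 and 1943 ± 994 (SD, n = 4 each), a 74.3-fold difference, and the Log2FC was 4.19 ± 0.24 (SE; adjusted p = 8.58e-14, limma). Without replicate 4 the ratio was 55.4 and the Log2FC 3.89.

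Cyp1c1 and cyp1c2, 2 further family 1 oxidases, lie next to each other in the reference annotation with 0 genes between them. Cyp1c1 had 92.7, 61.0, 72.4 and 66.1 normalized reads in the control pools and 481, 382, 415 and 971 at 3.2 µM. Cyp1c2 had 26.6, 27.6, 20.7 and 25.7 reads in the control pools and 91.9, 67.9, 59.9 and 199 at 3.2 µM. In both genes the groups did not overlap and replicate 4 of 3.2 µM was again the highest. The ratio of means was 7.70 for cyp1c1 (Log2FC 1.97 ± 0.16, SE; adjusted p = 6.76e-10, limma) and 4.16 for cyp1c2 (Log2FC 0.85 ± 0.13, SE; adjusted p = 4.18e-04). Without replicate 4 the ratios were 5.83 and 2.91, and both calls held. How far reads were shared between these similar genes was not tested.

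The fourth family 1 gene measured, cyp1d1, which does not depend on the AHR in zebrafish, had 129 ± 18 reads in the control and 141 ± 16 at 3.2 µM (SD, n = 4 each), and its pools overlapped. Its Log2FC was 0.08 (95% interval -0.07 to 0.23; adjusted p = 0.746, limma). Of the 4 family 1 genes matched, 3 therefore rose and none fell, beside the 0.0573% of all genes that rose. Another symbol on the family 1 list was not matched to a measured gene.

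**Figure D2:**
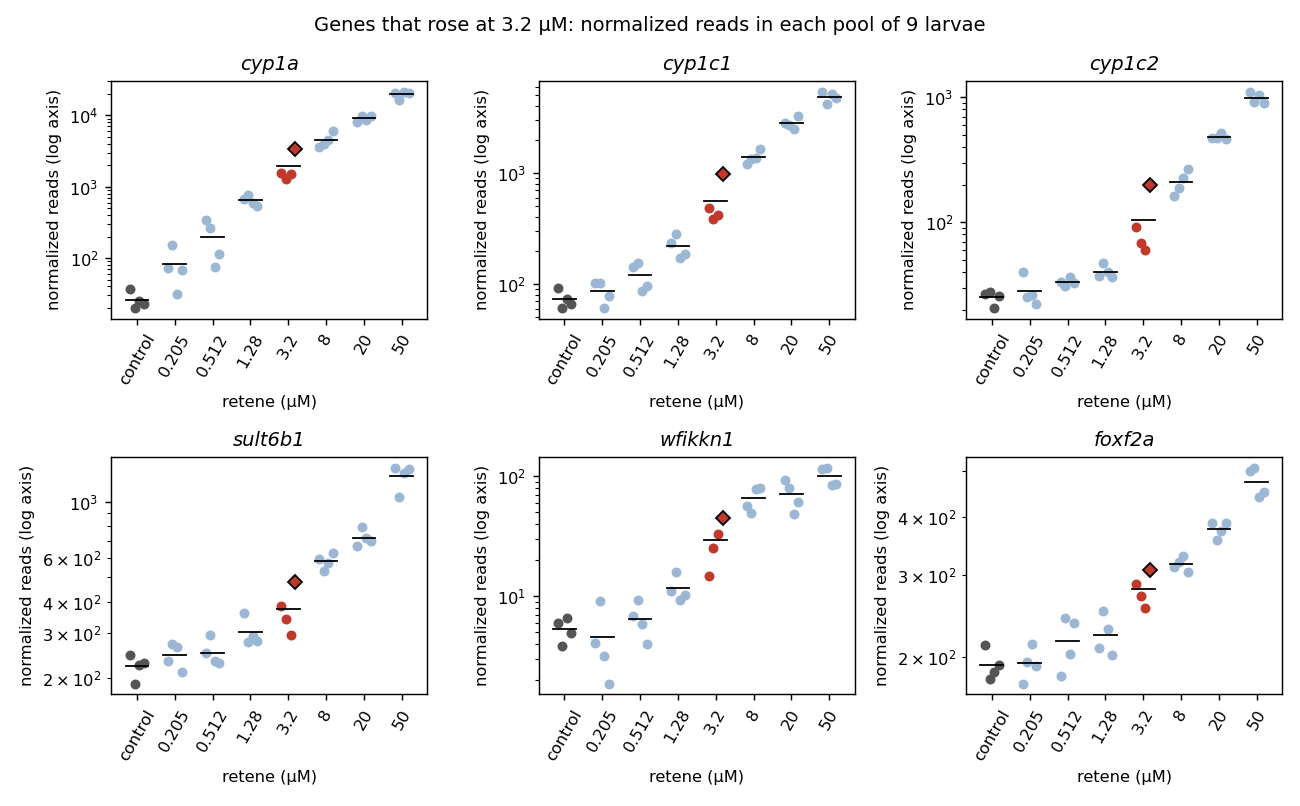
Normalized reads (log axis) of cyp1a, cyp1c1, cyp1c2, sult6b1, wfikkn1 and foxf2a in each of the 32 pools by retene concentration, with 1 point per pool and a bar at each group mean. Control pools are grey, pools of 3.2 µM red and replicate 4 of 3.2 µM a diamond, which is the highest of its group in all 6 genes.

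The receptor and its partners were not called. Of 11 genes for AHR receptors, ARNT partners, repressors and chaperone partners, 0 rose and 0 fell, beside 0.0573% and 0.0264% of all genes. Among the 11, 4 had an unadjusted p under 0.05 with higher values and 1 with lower values, against 4.84% and 4.88% of all genes. Their median Log2FC was 0.07 beside -0.01 over all genes. Ahr2 had 663 ± 145 reads in the control and 695 ± 59 at 3.2 µM (Log2FC 0.07, 95% interval -0.12 to 0.27; adjusted p = 0.826, limma). The AHR repressor gene ahrra had 13.8, 11.4, 10.3 and 10.9 reads in the control and 17.6, 23.3, 12.4 and 41.5 at 3.2 µM. The lowest exposed pool of ahrra lay below the highest control pool, and its Log2FC of 0.26 did not pass (95% interval 0.07 to 0.44; adjusted p = 0.377). Tiparp, an ADP-ribosyltransferase induced by the AHR and a brake on it, had 237 ± 47 and 255 ± 12 reads (Log2FC 0.09, 95% interval -0.07 to 0.24; adjusted p = 0.728).

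Arnt, the gene for a partner of the receptor, was the only one of these 11 with groups that did not overlap. Its exposed pools all lay below its control pools, as did those of 2.59% of all genes. It had 28.6, 61.0, 30.1 and 22.7 reads in the control pools and 11.7, 15.2, 13.4 and 1.0 at 3.2 µM. The highest control value was that of replicate 2, the pool that stood apart, and the lowest exposed value was that of replicate 4. The Log2FC of arnt was -0.54 ± 0.14 (SE; adjusted p = 0.165, limma), and without control replicate 2 it was -0.42 (adjusted p = 0.677). The difference in arnt did not pass. Most pools of the lowest concentrations were also below the controls, with 11.1 to 31.6 reads at 0.205 µM and 6.2 to 14.9 at 0.512 µM.

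Sult6b1, a cytosolic sulfotransferase, had 246, 190, 226 and 228 normalized reads in the control pools and 384, 341, 295 and 480 at 3.2 µM. The lowest exposed pool was above the highest control pool, and the ratio of means was 1.69 (Log2FC 0.56 ± 0.09, SE; adjusted p = 0.00341, limma). Wfikkn1, a secreted protein that binds myostatin and related ligands in mammals, was scarce in the control, with 5.9, 3.8, 6.6 and 4.9 reads, and had 14.7, 25.4, 33.1 and 44.6 reads at 3.2 µM. Its ratio of means was 5.54, the third highest of the 19, although its Log2FC was only 0.58 ± 0.10 (SE; adjusted p = 0.00551) because of its low counts. Without replicate 4 the wfikkn1 ratio was 4.59 and the adjusted p 0.0673.

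Foxf2a, a forkhead transcription factor of mesenchyme, had 213, 180, 186 and 192 reads in the control and 286, 271, 255 and 308 at 3.2 µM, a narrow rise with tight groups (ratio 1.45; Log2FC 0.39 ± 0.07, SE; adjusted p = 0.00341, limma). Cry1a, a cryptochrome that represses the circadian activators, had 83.8, 89.6, 135 and 143 reads in the control and 188, 180, 192 and 242 at 3.2 µM. The 4 control values of cry1a fell into a low and a high pair, and all 4 exposed pools were above both (ratio 1.77; adjusted p = 0.0059). Lonrf1, which encodes a LON peptidase domain and RING finger protein, had 118, 95.3, 139 and 164 reads in the control and 216, 173, 236 and 309 at 3.2 µM (ratio 1.81; adjusted p = 0.0159). Cry1a and lonrf1 lost the call without control replicate 2 (adjusted p = 0.0595 and 0.112) and without replicate 4 of 3.2 µM (adjusted p = 0.0673 and 0.137).

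A further 5 genes rose with an adjusted p of 0.0159 or more. Vps29, a subunit of the retromer that returns membrane proteins from endosomes, had 449 ± 24 reads in the control and 579 ± 31 at 3.2 µM (SD, n = 4 each). Pnp5a, a purine nucleoside phosphorylase, had 954 ± 37 and 1303 ± 43 reads, and hebp2, a heme-binding protein, had 106 ± 3.3 and 161 ± 29 reads. The uncharacterized wu:fc46h12 had 1287 ± 61 and 1604 ± 47 reads, while si:ch211-89o9.4 had 30.0 ± 3.6 and 65.1 ± 14.9 reads. In each of these 5 the 4 exposed pools lay above the 4 control pools. The ratios ran from 1.25 for wu:fc46h12 to 2.17 for si:ch211-89o9.4, and the adjusted p from 0.0159 for vps29 to 0.0463 for hebp2 and si:ch211-89o9.4 (limma). Pnp5a was called in 0 of the 8 fits that left out 1 pool, and hebp2 and si:ch211-89o9.4 in 1 each.

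**Figure D3:**
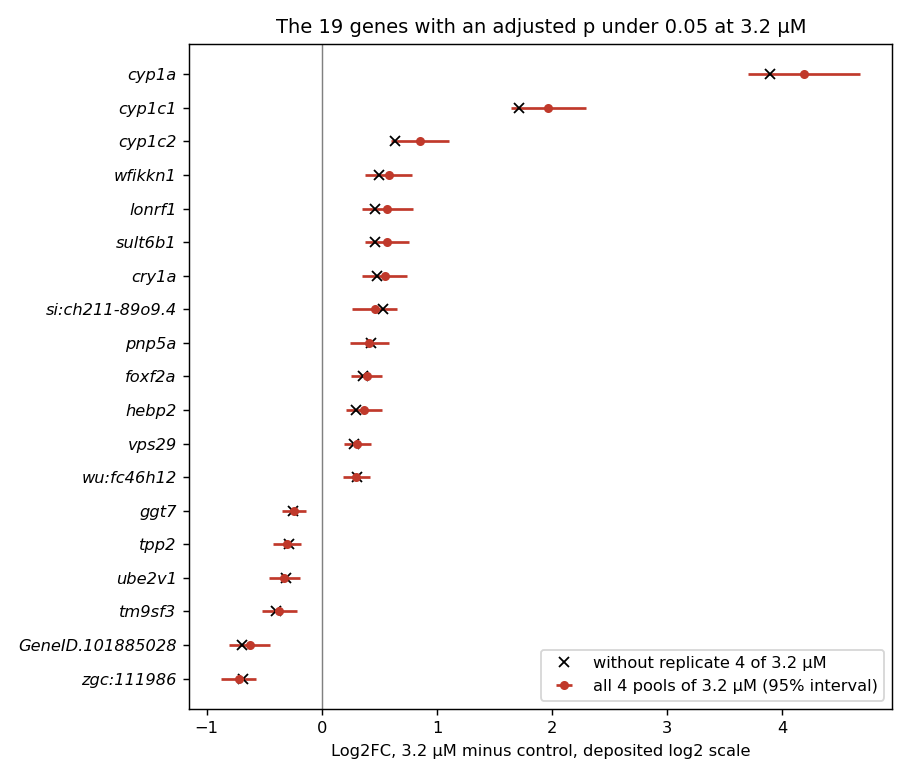
Log2FC of the 19 DEGs at 3.2 µM (red points, with 95% intervals) and the same value without replicate 4 of 3.2 µM (crosses). Leaving out replicate 4 lowered the Log2FC of cyp1a to 3.89, of cyp1c1 to 1.71 and of cyp1c2 to 0.63, and moved the 6 falls little.

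Each of the 6 genes that fell did so by less than 2-fold. The uncharacterized gene zgc:111986 had 1225, 1117, 1121 and 1143 reads in the control and 642, 640, 754 and 605 at 3.2 µM. The gap between the groups was wide beside the spread in either, the ratio of means was 0.573 and the Log2FC was -0.72 ± 0.07 (SE; adjusted p = 2.44e-07, limma). GeneID.101885028 had 926, 755, 1019 and 995 reads in the control and 561, 501, 532 and 652 at 3.2 µM (ratio 0.608; Log2FC -0.63 ± 0.09, SE; adjusted p = 1.73e-04). Control replicate 2 was the lowest control for GeneID.101885028, and without that pool the Log2FC was -0.71.

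The other 4 falls were smaller or rested on fewer reads. Tm9sf3, a membrane protein of the transmembrane 9 family, had 73.0, 75.3, 63.0 and 71.0 reads in the control and 49.9, 27.4, 38.2 and 46.7 at 3.2 µM (ratio 0.574; adjusted p = 0.0264, limma). Ube2v1, a partner of a ubiquitin-conjugating enzyme, had 1424, 1288, 1374 and 1375 reads in the control and 1135, 986, 1126 and 1036 at 3.2 µM (ratio 0.784; adjusted p = 0.0264). Both groups were tight for ube2v1, and they did not overlap for either gene. Tpp2, a large cytosolic peptidase that works downstream of the proteasome, had 287 ± 25 and 216 ± 18 reads, and ggt7, of the gamma-glutamyltransferase family, had 448 ± 27 and 364 ± 15 reads (SD, n = 4 each; adjusted p = 0.0264 and 0.0434). Without control replicate 2 the adjusted p of ube2v1 was 0.0355 and those of tm9sf3, tpp2 and ggt7 were 0.114, 0.0867 and 0.144.

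All 19 DEGs had groups that did not overlap, and for each of them the exact permutation test (two-sided, 4 pools in either group) gave p = 0.02857, the smallest it allows. The same pools chose these genes, so neither result is independent evidence. Over all genes, the 4 exposed pools lay above the 4 controls in 2.77% and below them in 2.59%, so separation by itself was common. Unadjusted p values under 0.05 were found for 1098 genes with higher and 1108 genes with lower values. The typical precision was a 95% half-width of 0.17 on the log2 scale, and the smallest change called was that of ggt7, at 0.24 below the control. Of the 19, 17 had a Log2FC under 1 in size and 14 a ratio of means between 0.5 and 2.

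Just above the threshold stood cyb5a (adjusted p = 0.0517, limma), ifrd1 (0.0522), thap12b (0.0532), aqp8a.1 (0.0581) and gstp1.2 (0.0587), all with higher values at 3.2 µM, while just below it were hebp2 and si:ch211-89o9.4 (0.0463) and ggt7 (0.0434). Cyb5a, the cytochrome b5 that passes electrons to some cytochromes P450, had 286, 317, 289 and 360 reads in the control and 409, 418, 416 and 556 at 3.2 µM. Gstp1.2, a glutathione S-transferase, had 2301 ± 258 and 3284 ± 611 reads (SD, n = 4 each). Some differences larger than most calls did not pass, as in 2 genes named after their values were seen, whose pools of the same group differed widely. GeneID.337770 had the most negative Log2FC of all genes, -1.34 (adjusted p = 0.363), with 1353, 1740, 1237 and 1855 reads in the control and 837, 166, 2144 and 218 at 3.2 µM. The glucocorticoid-induced gene fkbp5 had 268, 111, 228 and 285 reads in the control and 436, 427, 414 and 278 at 3.2 µM (Log2FC 0.64, adjusted p = 0.248).

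Enzymes that conjugate oxidized products to glutathione, sulfate or glucuronide had 1 member among the DEGs. Of 48 such genes 1 rose (sult6b1) and 0 fell, beside 0.0573% and 0.0264% of all genes, with 6 at an unadjusted p under 0.05 with higher values (4.84% of all genes) and a median Log2FC of 0.04. Of 69 cytochrome P450 genes outside family 1 and of 62 aldehyde, alcohol and carbonyl oxidoreductases, 0 rose and 0 fell, beside the same shares. Their medians were 0.02 and 0.06. At an unadjusted p under 0.05, 4 and 9 had higher values and 1 and 0 lower (4.84% and 4.88% of all genes). All exposed pools lay above all controls for 3 and 5 of them (2.77% of all genes).

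Nrf2 is the factor that switches on antioxidant genes when cells meet reactive compounds. Of 45 Nrf2 factors and antioxidant targets 0 rose and 0 fell at 3.2 µM, beside 0.0573% and 0.0264% of all genes. An unadjusted p under 0.05 was found for 13 with higher values and 1 with lower (4.84% and 4.88% of all genes). All exposed pools lay above all controls for 7 (2.77% of all genes). Hmox1a, which breaks down heme, had 109, 65.7, 95 and 110 reads in the control and 180, 167, 162 and 279 at 3.2 µM. Its groups were apart by more than 50 reads and its ratio was 2.07, but it did not pass (Log2FC 0.65, 95% interval 0.36 to 0.95; adjusted p = 0.0627, limma). Nfe2l2b, a zebrafish Nrf2 paralog, had 15.8, 14.3, 21.6 and 16.8 reads in the control and 31.3, 35.5, 36.1 and 45.6 at 3.2 µM, a ratio of 2.17 on few reads (adjusted p = 0.145). Peroxiredoxin prdx4 had 364 ± 40 and 462 ± 15 reads (adjusted p = 0.124). The median over the 45 genes was 0.09, and 0.04 without control replicate 2.

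Of 42 circadian genes 1 rose (cry1a) and 0 fell, and 4 had all exposed pools above all controls, as did 2.77% of all genes. An unadjusted p under 0.05 was found for 6 of the 42 with higher and 3 with lower values (4.84% and 4.88% of all genes). Their Log2FC ran from -0.61 to 0.54, with a median of 0.003. Per2 and cry3b, a light-induced period gene and another cryptochrome gene, also had groups that did not overlap, with 73.6 ± 4.7 and 116 ± 16 reads for per2 and 104 ± 13 and 159 ± 28 reads for cry3b (adjusted p = 0.336 and 0.158, limma). The time of day at which each pool was taken is not given in the sources used here. Of 93 TGF-β and BMP pathway genes 1 rose (wfikkn1) and 0 fell, and 9 had an unadjusted p under 0.05 with lower values and 2 with higher, beside 4.88% and 4.84% of all genes. Of 55 forkhead genes 1 rose (foxf2a) and 0 fell, and 5 had an unadjusted p under 0.05 with higher values and 5 with lower. The calls in the circadian, TGF-β and BMP, and forkhead lists stand beside 0.0573% of all genes that rose and 0.0264% that fell. Foxq1a, another forkhead gene, had 52.2, 50.5, 76.2 and 52.3 reads in the control and 69.4, 77.1, 97.1 and 161 at 3.2 µM, with 1 control above an exposed pool (adjusted p = 0.296).

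No DEG was found for retinoic acid, FGF, cell cycle, cell cycle inhibitor, heat shock, immediate early, hypoxia, heme, cartilage and vessel genes. With the receptor, other cytochrome P450, oxidoreductase and Nrf2 lists these made 14 lists without a call by limma, beside 0.0838% of all genes called. The medians of these lists lay between -0.06 and 0.09. Of their 528 distinct genes 55 had an unadjusted p under 0.05 with higher and 18 with lower values, against 4.84% and 4.88% of all genes. Voom called 0 of them, which adds nothing, since the 17 genes it called were all among the limma DEGs.

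The study listed 19 genes that responded most to retene, a choice made partly on these pools and so no independent evidence of direction. In the limma fit 5 of them rose at 3.2 µM (cyp1a, cyp1c1, cyp1c2, sult6b1 and wfikkn1), beside 0.0573% of all genes. A positive Log2FC was found for 18, 12 had all exposed pools above all controls (2.77% of all genes did), and the median Log2FC was 0.37. With DESeq2 and the same adjusted p threshold, the study itself called several times as many genes at 3.2 µM as the limma fit did. The narrow response described here is therefore that of the limma fit. The study's calls also held more of these 19, among them nfe2l2b and cyb5a. Replicate 4 was the highest of the 4 exposed pools for 15 of the 19. The pool numbered 4 was also the highest for 14 of the same 19 genes at 8 µM, and for 4 of them at 1.28 µM. Fgf7, a growth factor made by mesenchyme, had 17.7, 20.0, 14.1 and 8.9 reads in the control and 14.7, 22.3, 19.6 and 58.1 at 3.2 µM. For fgf7 replicate 4 stood well clear of the controls, while replicate 2 was only slightly above the highest of them. The ratio of means fell from 1.89 to 1.24 without replicate 4. The cause of the high values in replicate 4 was not tested.

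Tissue markers were examined because whole larvae were sequenced, in which fewer cells of a type and less RNA per cell cannot be told apart. Of 184 markers in 12 lists (heart, muscle, lens, hatching gland, red cells, yolk and liver, skin, pigment cells, neurons and glia, photoreceptors, leukocytes, pancreas and gut) 0 were called by limma. Limma called 0.0838% of all genes. Voom also called 0 of the markers, which follows from the limma result, since voom called no gene outside the limma DEGs. Among the markers 18 had an unadjusted p under 0.05 with higher and 5 with lower values (4.84% and 4.88% of all genes). Some markers had very few reads, such as opn1sw2, bmp10 and pvalb2, with means of 1.2, 1.4 and 1.5 normalized reads over the 8 pools. The deposited scale shrinks changes in such genes, so the lack of a call says little about them. The list medians lay between -0.07 for photoreceptors and 0.22 for hatching gland. None of these markers was at 0 in all 8 pools, which the authors' removal of genes with 0 reads in at least 8 pools had fixed beforehand. Some marker symbols, 6 each for hatching gland and for pancreas and gut, were not matched to a measured gene. The summed reads of the 19 neuron and glia markers were 33639 to 34513 in the control and 31297 to 33284 at 3.2 µM, without overlap, although their median Log2FC was 0.03 and 3 of the 19 lay below the controls in all exposed pools, as did 2.59% of all genes. The summed reads of the 12 pancreas and gut markers were 1555 to 1786 and 1978 to 2264, also without overlap, with 1 of the 12 above the controls in all exposed pools (2.77% of all genes). The 5 hatching gland markers all had a positive Log2FC, with sums of 7061 to 9026 in the control and 8745 to 10691 at 3.2 µM, which overlapped.

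Genes of the basic machinery of the cell were looked at after their values were seen. Of 76 cytosolic ribosomal protein genes 0 were called, 38 had an unadjusted p under 0.05 with higher values (4.84% of all genes) and 0 with lower, and the median Log2FC was 0.17 beside -0.01 over all genes. Their summed reads were 455089, 387220, 460783 and 448369 in the control and 507945, 467282, 475305 and 492476 at 3.2 µM. Control replicate 2 was the lowest by far, and was the lowest of the 4 controls for 69 of the 76 genes, against 30.6% of all genes. Without it the median was 0.11, and 18 of the 76 had an unadjusted p under 0.05 with higher values, against 2.92% of all genes. The sums of the other 3 controls still lay below those of all exposed pools. For 95 nuclear genes of the respiratory chain and ATP synthase 27 had such a p and the median was 0.09, and without control replicate 2 these were 13 and 0.05. For 42 proteasome subunit genes they were 10 and 0.08, and 3 and 0.04 without that pool. None of the 3 lists held a gene called by limma (0.0838% of all genes were). The voom calls all lay within the limma DEGs, so they could hold none of these genes either. The cause of the low values in control replicate 2 was not tested.

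**Figure D4:**
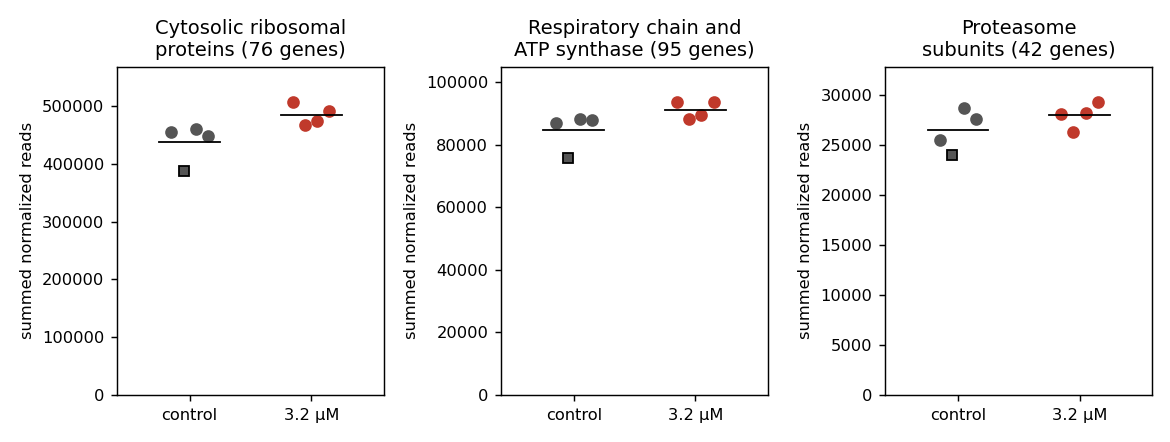
Summed normalized reads of ribosomal protein, respiratory chain and ATP synthase, and proteasome genes in each of the 4 control pools (grey) and the 4 pools of 3.2 µM (red), with bars at the group means. Control replicate 2 (square) is the lowest pool in each panel, at 387220 reads for the ribosomal genes.

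The genes called at 3.2 µM were then followed to the neighbouring concentrations. Against 1.28 µM, 2 genes were called, 0.00882% of those tested, and both were higher at 3.2 µM: cyp1a (Log2FC 1.36 ± 0.24, SE; adjusted p = 0.0308, limma) and cyp1c1 (1.01 ± 0.16; adjusted p = 0.00722). Cyp1a had a mean of 643 reads at 1.28 µM and 1943 at 3.2 µM, and cyp1c1 218 and 562. Against 3.2 µM, 8 µM differed in 7 genes, 0.0309% of those tested. At 8 µM 6 were higher: cyp1a (Log2FC 1.26), cyp1c1 (1.24), cyp1c2 (0.71), ahrra (0.66), sult6b1 (0.53) and si:ch211-229d2.5 (0.43). The other, the sodium pump subunit gene atp1a1a.3, was lower (-0.37). Both counts depended on single pools. Without replicate 4 of 3.2 µM they were 1 and 9, and the count against 1.28 µM was 0 without replicate 3 or replicate 4 of 1.28 µM.

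Ahrra did not pass against the control at 3.2 µM and rose in the next step, with mean reads of 11.6 in the control, 19.5 at 1.28 µM, 23.7 at 3.2 µM and 70.7 at 8 µM. Cyp1c2 went from 40.3 to 105 and 212 reads over the same 3 concentrations, and wfikkn1 from 11.6 to 29.4 and 66.3. The step of wfikkn1 from 3.2 to 8 µM did not pass (Log2FC 0.50; adjusted p = 0.0558, limma). Tiparp had means of 255 reads at 3.2 µM and 313 at 8 µM (adjusted p of the step = 0.975).

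Of the 13 genes that rose, 9 had their highest group mean at 50 µM, among them the 3 family 1 genes, while pnp5a, vps29 and si:ch211-89o9.4 were highest at 3.2 µM. The mean reads of pnp5a were 954 in the control, then 1147, 1303, 1134 and 1038 at the concentrations 1.28, 3.2, 8 and 50 µM. Since 3.2 µM chose these genes, a peak there is partly a result of the choice. Vps29, hebp2 and si:ch211-89o9.4 were also apart from the control at 0.205 µM, the lowest concentration. The same control pools had entered the choice of these genes, so that separation is partly a result of the choice too. Their pools there held 494 to 558, 113 to 148 and 36.2 to 52.2 reads, in that order. The control pools held 416 to 473, 102 to 109 and 25.7 to 34.5 reads. The 0.205 µM pools of foxf2a, 176 to 214 reads, overlapped its controls, 180 to 213.

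Of the 6 genes that fell, 5 had their lowest group mean at 3.2 µM, which is again partly a result of the choice. The means of the other concentrations did not enter that choice, but their pools shared in the estimate of spread behind each call. For zgc:111986 the mean was 1152 reads in the control, 1148 and 1059 at the lowest 2 concentrations (0.205 and 0.512 µM), 723 at 1.28, 660 at 3.2, 752 at 8, 1024 at 20 and 999 at 50 µM. Its pools held 638 to 811 reads at 1.28 µM, 680 to 813 at 8 µM, 850 to 1092 at 20 µM and 979 to 1028 at 50 µM, so that the pools of 1.28 and 8 µM all lay below those of 20 and 50 µM. GeneID.101885028 had 506 to 643 reads at 1.28 µM, 490 to 667 at 8 µM, 733 to 852 at 20 µM and 721 to 860 at 50 µM, with the same separation. Tpp2 was also lower at 0.205 µM, with 221 to 246 reads against 257 to 318 in the control pools, which had entered the choice as well. Ube2v1 was not lower there, with 1403 to 1637 reads against 1288 to 1424 in the control.

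Against the 3.2 µM pools themselves, zgc:111986 was 0.56 higher on the log2 scale at 20 µM and 0.54 higher at 50 µM. GeneID.101885028 was 0.43 higher at both, and ube2v1 0.35 higher at 50 µM, with means of 1071 and 1391 reads. These values were computed after the pattern was seen and use the 3.2 µM pools that chose the genes, so they are given with no test. No batch, plate or collection time is given for the pools, so a batch shared by the pools of 1.28 to 8 µM cannot be told apart from concentration.

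**Figure D5:**
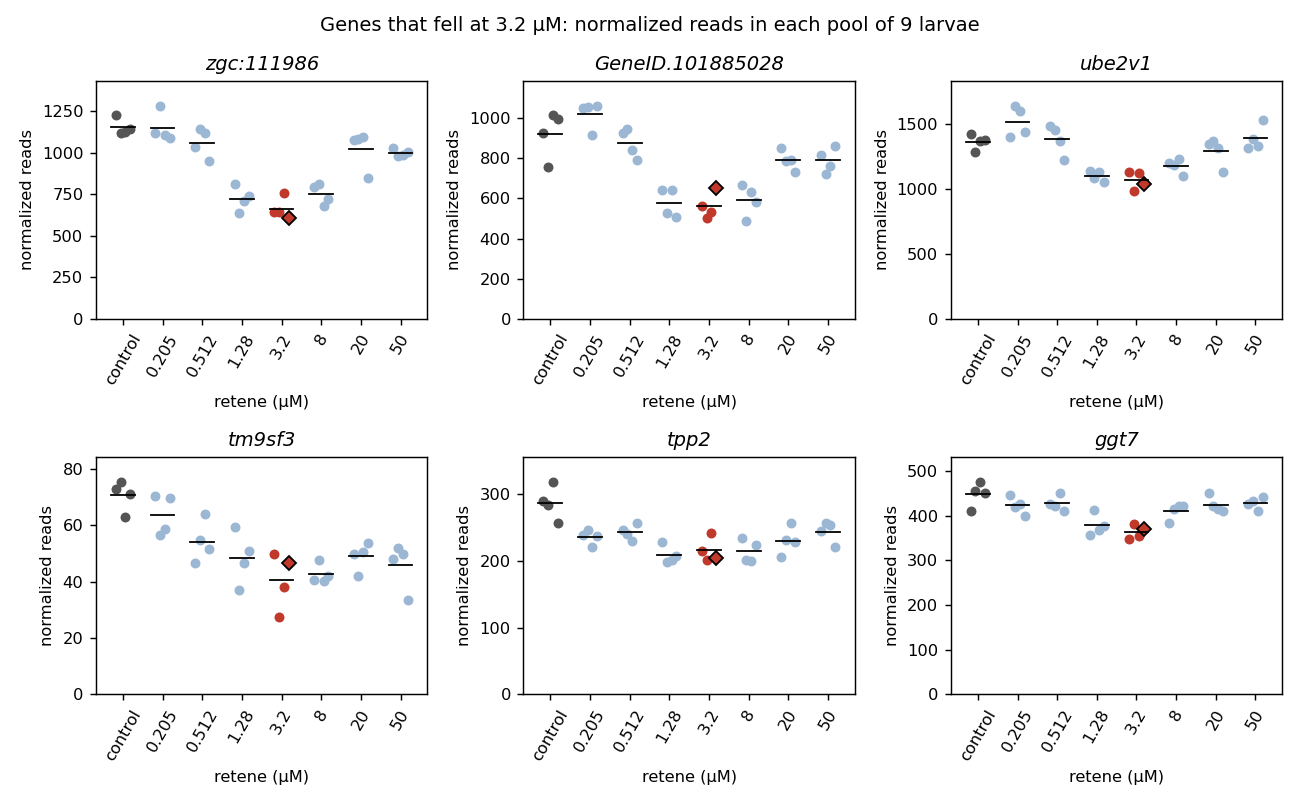
Normalized reads (linear axis from 0) of the 6 genes that fell at 3.2 µM in each of the 32 pools by retene concentration, with 1 point per pool and a bar at each group mean. Colours are as in the plot of the risers. The gene zgc:111986 and GeneID.101885028 were low at 1.28 to 8 µM, and at 50 µM had means of 999 and 790 reads.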

How the data were processed

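RNA from 32 pools of 9 whole larvae at 48 hpf was sequenced, and the 4 control pools and 4 pools of 3.2 µM were compared. Per the study's methods, the authors used STAR for alignment to GRCz11 and HTSeq for gene counts (alignment quality of 10 or more), removed genes with 0 reads in at least 8 pools and normalized with DESeq2. The deposited log2 values are their variance-stabilized counts. The transformation was reversed, and 100% of values became whole reads (within 0.01) divided by 1 size factor per pool. Log2FC came from limma 3.58.1 (R 4.3.3) on the deposited log2 values, with a mean for each of 8 groups over 32 pools and a mean-variance trend, and p was adjusted by Benjamini-Hochberg. The fit was tested on simulated data. Genes were named from RefSeq GRCz12tu (21030 of 22686 matched), so no coordinates are given. Genes were named by rule: all DEGs, the 19 of the study's list, the family 1 and receptor lists, the 3 lowest p in other lists, those nearest the threshold and those called between neighbouring concentrations. Comparison, lists and rules were chosen with earlier results of these data known, and the 3 machinery lists after the values were seen. Alternatives varied the scaling, the filter, the model, the threshold and the pools. DESeq2 was not run on the recovered reads.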

Additional observations from a re-analysis of the deposited data

Results flagged for a closer look

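In 44 genes the 4 pools of each group were examined for a pool far from its group mates, 88 tests in all, of which chance gives about 1 in 20. In all, 4 stood out. Replicate 4 of 3.2 µM was the highest of its group for cyp1a (3422 normalized reads, others 1277 to 1554), cyp1c1 (970.7, others 382 to 481) and cyb5a (555.9, others 409 to 418). Control replicate 3 was the highest control for foxq1a (76.18, others 50.5 to 52.3). On the deposited log2 scale 2 of the 4, those of cyb5a and foxq1a, remained past the critical value, while cyp1a and cyp1c1 did not.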

How the results depend on the processing

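The 19 DEGs at 3.2 µM (13 higher, 6 lower) numbered 13 without the mean-variance trend, 17 with voom and 23 with a mean of at least 10 normalized reads. Counts moved further with log2(normalized reads + 0.5), which gave 34 (28 higher), with quantile normalization (27, of which 21 higher), and with scaling to total reads, which gave 31 (20 higher, 11 lower) and moved the median Log2FC of all genes to -0.05. They were 38 (31 higher) with p adjusted over all 7 concentrations, 9 (7 higher, 2 lower) at an adjusted p under 0.01, 6 (3 higher, 3 lower) when only the 8 pools compared were fitted, and 5 (3 higher, 2 lower) without control replicate 2 and replicate 4 of 3.2 µM, an alternative chosen after seeing the data. Leaving out 1 pool gave 9 to 20 DEGs, 6 to 17 higher and 2 to 4 lower. The counts were 9 without replicate 4 of 3.2 µM, 10 without control replicate 2, and 11 without control replicate 1 or replicate 2 of 3.2 µM. For the 2 DEGs between 3.2 and 1.28 µM the range was 0 to 3, with 1 at an adjusted p under 0.01 and 1 after scaling to total reads. For the 7 between 8 and 3.2 µM it was 2 to 9, with 3 and 4. None of the 19 DEGs changed direction in these alternatives. The causes of these shifts were not tested.

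A fit with the replicate block called 17 genes (11 higher, 6 lower), 16 of them among the 19. The labels do not say that a number marks a shared batch or spawn. Same-numbered deviations correlated at 0.01, 0.36, -0.01 and 0.26, and not every pool correlated best with its own number. Depth limits genes with few reads, such as wfikkn1, ahrra and arnt, whose Log2FC is shrunk on the deposited scale.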
